A study of Mus musculus with 4 samples.

Results

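The chromatin of 10 germline genes was examined in mouse embryonic stem cells (ESCs): Dazl, Ddx4, Mael, Tdrkh, Stk31, Sycp1, Sycp3, Hormad1, Stag3 and Slc25a31. They were listed by name as germline genes known to be repressed in ESCs, with no measured value in the rule, though earlier results of these data were known when the list was made. They are 10 of the 21938 protein-coding genes of GENCODE mouse release 21. The assay was ATAC-seq, which maps accessible chromatin: a transposase cuts and tags open DNA, and a peak is an interval where a peak caller found a pile-up of fragments. The 4 libraries came from E14 cells, a mouse ESC line, grown in serum with LIF as bulk cultures. The cells received pLKO lentivirus for 8 hours, were kept in puromycin at 2 µg/ml for 2 days and were collected 2 days after that. One library carried a hairpin against GFP (shGFP, no replicate) and 3 a hairpin against luciferase (shLuc replicates 1, 2 and 3), and neither target is a mouse gene, so that both hairpins are non-targeting controls. Nothing in the labels says that the shLuc replicates came from separate cultures, so the spread between them may be technical. The comparison was therefore of control libraries with each other: which of these germline promoters were listed as open, and how far the libraries differed.

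Germline genes encode proteins that germ cells need for meiosis, for the silencing of transposons by piRNAs (small RNAs bound by PIWI proteins) and for the control of their own messenger RNAs. In ESCs and somatic cells many of them are held inactive although their promoters are rich in CpG dinucleotides, and DNA methylation, the histone H3 lysine 9 methyltransferase SETDB1 and the polycomb complex PRC1.6 are the known repressors. PRC1.6 reaches promoters through the DNA-binding proteins MGA and MAX, which bind the E-box, and through E2F6 with its partner DP1, which bind an E2F site. RNA, DNA methylation and histone marks were not analysed here, so whether these genes were silent in these cells was not measured, and a peak at a promoter is a statement on accessibility only.

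The sequences at the starts of the genes are shown first, because the repressors named above reach them partly through short motifs. The motifs searched were the E-box CACGTG, which reads the same on both strands, and the E2F site GCGGGA, also as TCCCGC on the other strand, and no E-box overlapped an E2F site in these genes. The window ran from 250 bases before to 50 bases after the reference start, the most upstream start among the principal protein-coding transcripts. E-boxes stood in this window in 7 of the 10 genes, with 9 sites in all, against 7.76% of all protein-coding promoters and 10.9% of those with high CpG content. Hormad1 and Sycp3 had 2 E-boxes each, a count of 2 or more being found in 0.720% of protein-coding promoters. E2F sites also stood in 7 of the 10 genes, with 8 sites in all, against 25.1% of protein-coding promoters and 42.5% of those with high CpG content. Both motifs stood together in 6 genes (Sycp1, Sycp3, Mael, Hormad1, Slc25a31 and Stag3), against 2.59% of protein-coding promoters and 4.70% of those with high CpG content. Dazl and Tdrkh held neither motif in these letters, Ddx4 held an E2F site without an E-box, and Stk31 an E-box without an E2F site. Of 58 other germline genes, 10 had an E-box, 18 an E2F site and 1 both. The 10 genes are well-known examples of such repression, and the motif counts are a description of a list chosen by name, with no test.

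The 7 promoters with an E-box are printed with that of Dazl, which has neither motif and a peak in each library, from 250 bases before the start to 30 bases from it. They are given on build GRCm38 (the same coordinates as mm10), 5′ to 3′ on the strand of the gene. Capitals mark the E-box (CACGTG) and the E2F site (GCGGGA or TCCCGC). The stretches were Sycp1 (chr3:102936071-102936350, minus strand), Sycp3 (chr10:88459319-88459598, plus strand), Hormad1 (chr3:95559427-95559706, plus strand), Stag3 (chr5:138280276-138280555, plus strand), Mael (chr1:166238715-166238994, minus strand), Stk31 (chr6:49395354-49395633, plus strand), Slc25a31 (chr3:40708605-40708884, plus strand) and Dazl (chr17:50293607-50293886, minus strand).
Sycp1: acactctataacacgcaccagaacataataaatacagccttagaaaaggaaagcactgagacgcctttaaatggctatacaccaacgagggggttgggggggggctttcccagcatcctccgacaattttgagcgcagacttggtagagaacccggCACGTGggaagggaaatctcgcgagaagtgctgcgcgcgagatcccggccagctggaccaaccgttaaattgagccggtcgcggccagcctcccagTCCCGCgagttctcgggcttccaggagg
Sycp3: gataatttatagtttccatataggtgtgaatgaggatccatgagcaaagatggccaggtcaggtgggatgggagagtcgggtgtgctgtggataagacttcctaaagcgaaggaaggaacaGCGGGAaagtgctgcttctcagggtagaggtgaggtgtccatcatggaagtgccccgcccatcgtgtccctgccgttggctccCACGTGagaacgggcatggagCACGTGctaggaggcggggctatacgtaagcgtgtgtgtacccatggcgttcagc
Hormad1: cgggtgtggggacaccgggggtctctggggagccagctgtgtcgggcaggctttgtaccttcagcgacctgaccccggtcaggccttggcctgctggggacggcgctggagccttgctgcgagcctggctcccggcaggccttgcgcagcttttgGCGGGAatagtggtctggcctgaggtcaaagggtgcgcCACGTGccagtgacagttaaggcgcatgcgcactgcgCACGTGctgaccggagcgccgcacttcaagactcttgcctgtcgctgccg
Stag3: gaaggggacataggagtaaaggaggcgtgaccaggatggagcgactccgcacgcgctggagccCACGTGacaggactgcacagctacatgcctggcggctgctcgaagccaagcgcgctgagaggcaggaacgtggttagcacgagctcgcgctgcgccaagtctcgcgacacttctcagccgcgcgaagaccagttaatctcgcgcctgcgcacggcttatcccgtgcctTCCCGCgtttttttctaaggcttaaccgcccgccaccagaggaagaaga
Mael: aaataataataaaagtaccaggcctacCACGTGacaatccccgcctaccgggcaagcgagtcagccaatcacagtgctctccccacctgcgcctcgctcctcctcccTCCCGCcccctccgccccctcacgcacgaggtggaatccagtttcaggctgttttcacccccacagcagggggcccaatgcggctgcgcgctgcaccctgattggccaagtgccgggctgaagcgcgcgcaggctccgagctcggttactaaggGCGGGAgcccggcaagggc
Stk31: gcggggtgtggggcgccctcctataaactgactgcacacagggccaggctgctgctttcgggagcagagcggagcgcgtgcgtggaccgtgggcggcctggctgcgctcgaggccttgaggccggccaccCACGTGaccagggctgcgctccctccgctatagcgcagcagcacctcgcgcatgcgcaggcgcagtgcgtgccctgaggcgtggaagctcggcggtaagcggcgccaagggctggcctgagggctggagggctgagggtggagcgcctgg
Slc25a31: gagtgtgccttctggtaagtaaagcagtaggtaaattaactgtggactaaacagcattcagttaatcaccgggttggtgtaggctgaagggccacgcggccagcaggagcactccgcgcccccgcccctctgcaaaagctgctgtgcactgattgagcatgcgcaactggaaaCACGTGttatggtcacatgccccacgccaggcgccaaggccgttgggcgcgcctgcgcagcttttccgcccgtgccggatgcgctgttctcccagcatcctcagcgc
Dazl: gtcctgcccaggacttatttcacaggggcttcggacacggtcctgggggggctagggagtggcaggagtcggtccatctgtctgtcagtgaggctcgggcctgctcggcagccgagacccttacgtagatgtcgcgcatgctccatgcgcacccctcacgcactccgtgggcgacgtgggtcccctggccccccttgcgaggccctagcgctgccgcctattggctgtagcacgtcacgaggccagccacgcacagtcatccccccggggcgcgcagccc
With the start counted as base 1 and no base 0, the E-box began at position -94 in Sycp1, -46 and -25 in Sycp3, -57 and -20 in Hormad1, -187 in Stag3, -223 in Mael, -120 in Stk31 and -77 in Slc25a31. The E2F site at position 37 of Slc25a31 lies past the end of its printed stretch. That of Ddx4, whose promoter is not printed, began at position 30.

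The 10 promoters were alike in CpG content. The ratio of observed to expected CpG in 1 kb around the start had a median of 0.733 (range 0.653 to 0.770), against a median of 0.570 for all protein-coding genes (quartiles 0.223 to 0.774) and 0.560 for the 58 other germline genes. A promoter was classed as high CpG where a window of 500 bases near the start had a ratio over 0.75 and a GC content over 55%. By this rule 9 of the 10 were high CpG promoters, a class that held 47.1% of protein-coding genes, and Sycp3 was intermediate. GC content over the same 1 kb ran from 52.2% in Hormad1 to 62.8% in Ddx4. All protein-coding genes formed a low and a high group in this ratio, and the 10 genes lay together on the side of the high group.

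**Figure D1:**
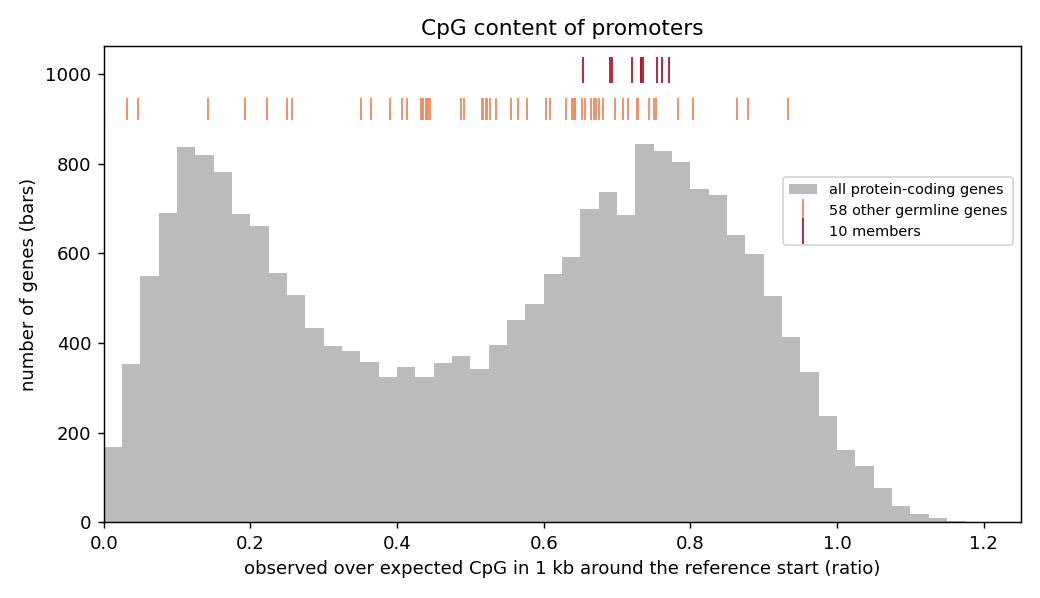
Ratio of observed to expected CpG in 1 kb around the reference start (x axis); the bars give the number of protein-coding genes (y axis), and the ticks above them mark single genes at no height of their own. The 10 germline genes (dark red) sit between 0.653 and 0.770, while the 58 other germline genes (orange) spread from 0.0315 to 0.933.

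Before the single genes, the lists and the cells were checked. The shGFP list held 41943 peaks and the shLuc lists 17860, 41401 and 31585, with no height or score, so that the depth of each library is unknown and an unlisted peak does not show closed chromatin. Between 3 and 40 peaks had identical coordinates in a pair of lists, so no list copied another. Of 10 pluripotency genes, 4 had a promoter peak in at least 1 library (Tfcp2l1 and Zfp42 in 4, Klf4 and Esrrb in 2), while the defining genes Pou5f1, Nanog and Sox2 had none. Over all protein-coding genes the share was 64.7%, and it was 18.8% in the low CpG class, to which Pou5f1 and Nanog belong, and 94.9% in the high CpG class, which holds Sox2. Of 4 fibroblast genes 4 had one (Thy1 and Col1a1 in 4 libraries, Col1a2 in 2, Vim in 1), ranging from 2 to 4 genes per library. Of 5 genes of other lineages 1 did (Myod1 in 1 library), and of 4 primordial germ cell genes also 1 (Prdm1 in 4 libraries, with none at Dppa3, Nanos3 or Prdm14). Defining genes of the labelled cell type thus had no listed promoter peak, and the part of other cells in the values below was not tested.

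Of the 10 germline genes, 9 had a peak within 1 kb of a transcript start in at least 1 library, and Slc25a31 was the exception. The same was true of 64.7% of all protein-coding genes, but of 94.9% of those with high CpG promoters. A peak in all 4 libraries was listed for 5 genes (Dazl, Ddx4, Sycp1, Tdrkh and Stag3), against 42.5% of protein-coding genes and 70.5% of those with high CpG promoters. In shLuc replicate 3, Sycp1 was counted here and below only through a peak in repeats near an internal start. With the reference start only, 4 genes had a peak in all 4 libraries. Of the 9 genes in the high CpG class, 8 had a peak in at least 1 library and 5 in all 4. Both shares of the 10 genes, 90% and 50%, stood between that of all protein-coding genes and that of the high CpG class, and they are no result particular to the 10 genes. By library, 8 genes had a promoter peak in shGFP (background 60.7%), 8 in shLuc replicate 1 (46.8%), 8 in replicate 2 (60.3%) and 6 in replicate 3 (55.1%). Of the high CpG class 90.6%, 76.9%, 90.3% and 84.2% had one in shGFP and shLuc replicates 1, 2 and 3. The shLuc mean was 7.33 ± 1.15 genes (SD, n = 3), and the shGFP count lay within 1 SD of it. No test was run, since 1 library against 3 cannot give an exact permutation p below 0.25.

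**Figure D2:**
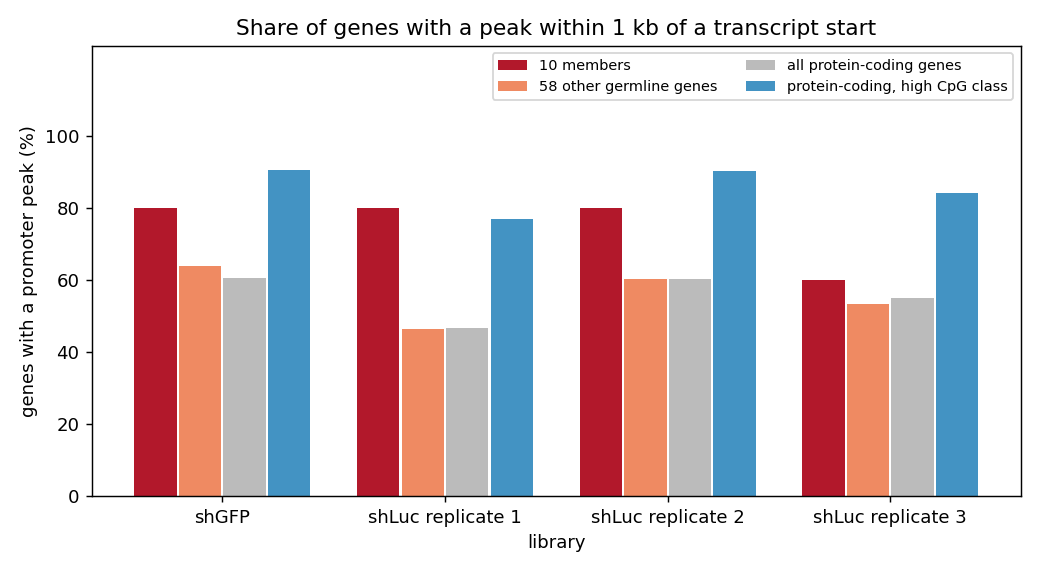
Percentage of genes with a peak within 1 kb of a transcript start (y axis, from 0) in each of the 4 libraries (x axis), for the 10 germline genes, 58 other germline genes, all protein-coding genes and those in the high CpG class. The 10 genes stand at 80% in 3 libraries and at 60% in shLuc replicate 3, above all protein-coding genes in each library and below the high CpG class in all but shLuc replicate 1.

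The library with the shortest list did not lack the most promoters. In shLuc replicate 1 the promoter peak of Mael was missing, and that of Hormad1 was listed there and in no other library. In shLuc replicate 3, whose list was 31585 peaks long, Sycp3 and Stk31 had no promoter peak and Sycp1 had none at its main start. The pattern of Sycp3 and Stk31, present in all libraries but shLuc replicate 3, was shared by 478 protein-coding genes (2.18%), that of Mael by 2193 (10.0%) and that of Hormad1 by 90 (0.410%). Among these 3 partial patterns, that of Mael, absent from the shortest list alone, was the most frequent.

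Dazl encodes an RNA-binding protein that controls translation in germ cells. Its promoter peak was 926 bp wide in shGFP and 767, 1113 and 1045 bp in shLuc replicates 1, 2 and 3. It lay wholly downstream of the reference start in 2 libraries, from 44 to 969 bp in shGFP and from 101 to 867 bp in shLuc replicate 1, and it covered that start in shLuc replicates 2 and 3. In each of the 4 libraries it overlapped at least 1 of the 6 annotated transcript starts of Dazl. Its centre was 436 to 506.5 bp downstream in the 4 libraries, between the 91.1 and the 94.8 percentile of all protein-coding promoter peaks of the same library, whose median centres were 71.5 to 86.5 bp downstream. No other peak was listed within 50 kb of Dazl, and the nearest start of another protein-coding gene, Rftn1, was 102962 bp away. The single listed region of this gene, chr17:50292644-50293756, was therefore isolated, and on average 2.73% of the bases of its peaks were in masked repeats.

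Ddx4 encodes Vasa, an RNA helicase of germ granules. The peak was 523 bp wide in shGFP and 436, 676 and 632 bp in shLuc replicates 1, 2 and 3, so it was present in all 4 lists and narrow in each. These widths stood at the 6.26, 13.3, 20.3 and 18.6 percentile of promoter peaks in their libraries, where the median was 965 bp in shGFP and 705, 932 and 897 bp in the shLuc replicates. The centre lay 159 bp downstream of the start in shGFP and 196.5, 334.5 and 342.5 bp downstream in the shLuc replicates. The E2F site at position 30 was inside the peak of each library. The start of Slc38a9, on the opposite strand and 8276 bp away, had a promoter peak of its own in 4 libraries.

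Mael encodes Maelstrom, a protein of the piRNA pathway. Its peak was 719 bp wide in shGFP, 942 bp in shLuc replicate 2 and 712 bp in replicate 3, and it spanned the start in all 3. In shLuc replicate 1 the nearest listed peak was 15209 bp away, at Ildr2, the neighbouring gene on the opposite strand. The E-box of Mael was inside the peaks of shLuc replicates 2 and 3 but just outside that of shGFP, whose upstream edge lay 201 bp before the start, and both E2F sites were inside the 3 peaks.

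Tdrkh, a tudor domain protein of mitochondria that takes part in piRNA maturation, had peaks 751 bp wide in shGFP and 512, 825 and 599 bp wide in shLuc replicates 1, 2 and 3. It was the single gene of the 10 whose peak covered the reference start in all 4 libraries. Here the centres lay upstream, 272 bp before the start in shGFP and 40.5, 167 and 176 bp before it in the shLuc replicates. Starts of 1700040D17Rik and Gm42463 also lay within 1 kb of this peak, so the peak cannot be given to Tdrkh alone. Stk31, a tudor domain kinase of germ cells, had peaks of 800 bp in shGFP and 666 and 799 bp in shLuc replicates 1 and 2, all of them over the start and its E-box. In shLuc replicate 3 the nearest peak to this start was 27528 bp away, at Fam221a.

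Sycp1 forms the transverse filaments of the synaptonemal complex, which joins paired chromosomes in meiosis. The peak at its reference start was 707 bp wide in shGFP and 591 and 584 bp in shLuc replicates 1 and 2, and it was not listed in replicate 3. The peak began 7 bp before the start in shGFP, which it covered, and 82 and 17 bp after it in the shLuc replicates, so that the E-box 94 bases upstream lay outside all 3. The call of Sycp1 in shLuc replicate 3 came from a different peak, 679 bp wide, 459 bp from an internal transcript start in the last part of the gene. That region, chr3:102832704-102833540, had a peak in 3 libraries. All bases of its peaks were in masked repeats, and each of its words of 50 bases occurred more than once in the genome (median 1637 copies). Equally good alignments were placed at random per the study's methods, so the true copy behind this peak is not known. Counted at the main start alone, Sycp1 had a promoter peak in 3 libraries.

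Sycp3, which builds the axial elements along meiotic chromosomes, had the widest single peak of the 10 genes and the widest range between libraries. It was 1146 bp wide in shGFP, 492 bp in shLuc replicate 1 and 1329 bp in replicate 2, and in replicate 3 the nearest peak was 43731 bp away. In shGFP and shLuc replicate 2 the peak spanned the start and both E-boxes. In shLuc replicate 1 the peak ran from 584 to 1075 bp downstream, with its centre at the 98.6 percentile of that library, and so it held neither the start nor the motifs. The 457 bp shared by the 3 lists, chr10:88460153-88460609, lay downstream of the start.

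Hormad1, a HORMA domain protein of the meiotic chromosome axis, had a promoter peak in shLuc replicate 1 alone, 505 bp wide and from 318 bp before to 186 bp after the start. It held both E-boxes and the E2F site. In shGFP and shLuc replicates 2 and 3 the nearest peaks were 28791, 28846 and 28969 bp away, at Golph3l. The peak was thus found in the shortest list, 17860 peaks, and absent from 3 longer ones. It was not listed again in shLuc replicates 2 and 3, which carried the same hairpin. Stag3, a cohesin subunit of meiosis, had a peak in all 4 lists, 823 bp wide in shGFP and 761, 956 and 725 bp in shLuc replicates 1, 2 and 3. The centres lay 340 bp upstream of the reference start in shGFP and 374, 297.5 and 390 bp upstream in the shLuc replicates. These were at the 3.14 to 6.29 percentile of their libraries. Stag3 has 8 annotated starts, the first at chr5:138280240 and the reference start at chr5:138280526. The centres lay closer to that first start, so the percentiles depend on the start chosen. The start of Gpc2, a cell surface proteoglycan gene on the opposite strand, was 521 bp from the reference start of Stag3. The peaks reached from beyond the Gpc2 start to the Stag3 reference start or to 28 bp before it. In all 4 libraries the peak overlapped an annotated start of Stag3. Gm43720 also started within 1 kb, so these peaks cannot be given to Stag3 alone. The E-box of Stag3 was inside the peak of all 4 libraries.

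Slc25a31 encodes the germ cell form of the ADP/ATP carrier of mitochondria. No list had a peak within 1 kb of its start or in its body. The nearest peak was 35902 bp away in shGFP and 36161, 35724 and 35841 bp away in shLuc replicates 1, 2 and 3, at the start of Hspa4l in each case. Its promoter was like the others in CpG ratio (0.754) and held both motifs, but it was among the 35.3% of protein-coding genes with no promoter peak in any library. In its own class, high CpG, 94.9% of genes had a promoter peak in at least 1 library. How many reads lay there cannot be told from the lists, so this is a peak not detected, not a closed promoter.

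**Figure D3:**
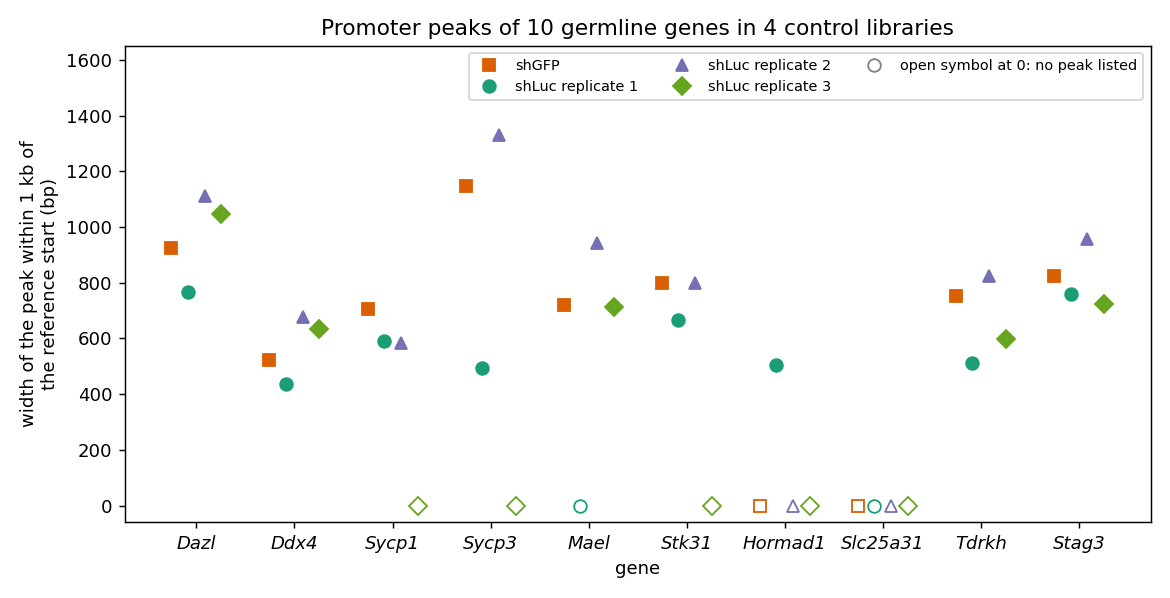
Width in bp of the peak within 1 kb of the reference start (y axis) for each of the 10 genes (x axis), with 1 symbol per library and open symbols at 0 where no peak was listed. Widths run from 436 bp (Ddx4) to 1329 bp (Sycp3), shLuc replicate 1 has the narrowest peak at Dazl, Ddx4, Sycp3, Stk31 and Tdrkh, and Slc25a31 has none.

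Taking the 29 peaks at the 10 reference starts together, 21 were narrower than the median promoter peak of their own library and 12 were below its lower quartile. In shGFP 7 of 8 were below the median, in shLuc replicates 1, 2 and 3 the counts were 6 of 8, 4 of 8 and 4 of 5. The peaks of 1 gene in several libraries share a sequence and are not independent, so no test was made of this share. The position of the peaks differed between genes more than between libraries. Dazl, Ddx4, Sycp1, Sycp3 and Mael had their centres downstream of the start in each library with a peak, and Stk31, Hormad1, Tdrkh and Stag3 upstream of it. In all, 17 of the 29 centres lay downstream, against 65.4% to 66.3% of the promoter peaks of all protein-coding genes, 13 lay above the upper quartile of their library and 10 below its lower quartile, so that both ends of the range were well filled. The 10 were peaks of Stag3, Tdrkh, Stk31 and Hormad1.

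A peak over the reference start itself was listed in at least 1 library for 9 genes, against 55.7% of protein-coding genes. By library this was 7 genes in shGFP (against 52.0%) and 5, 7 and 3 genes in shLuc replicates 1, 2 and 3 (against 38.3%, 51.3% and 46.6%). Of the 29 peaks, 22 covered the start, a smaller share than over all protein-coding genes. Of all protein-coding genes with a peak within 1 kb of the reference start, 11409 of 12400 had one over it in shGFP. In shLuc replicates 1, 2 and 3 this held for 8410 of 9548, 11252 of 12305 and 10213 of 11234. The share in the high CpG class was not computed. Of the 9 E-boxes, 7 were inside a listed peak of at least 1 library, the exceptions being those of Sycp1 and Slc25a31. Of the 8 E2F sites, 6 were inside a peak, the exceptions being those of Sycp3 and Slc25a31. No matching share over all protein-coding promoters was computed. The sites were searched only near the start, where 9 genes had a peak, so these counts say nothing on the motifs themselves. Of the 7 genes with an E-box, 6 had a promoter peak in at least 1 library, against 81.8% of all protein-coding promoters with an E-box, and 2 had one in all 4 (Stag3, and Sycp1 by way of its internal start), against 55.8%. Whether the proteins that bind these motifs were present at them was not measured.

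**Figure D4:**
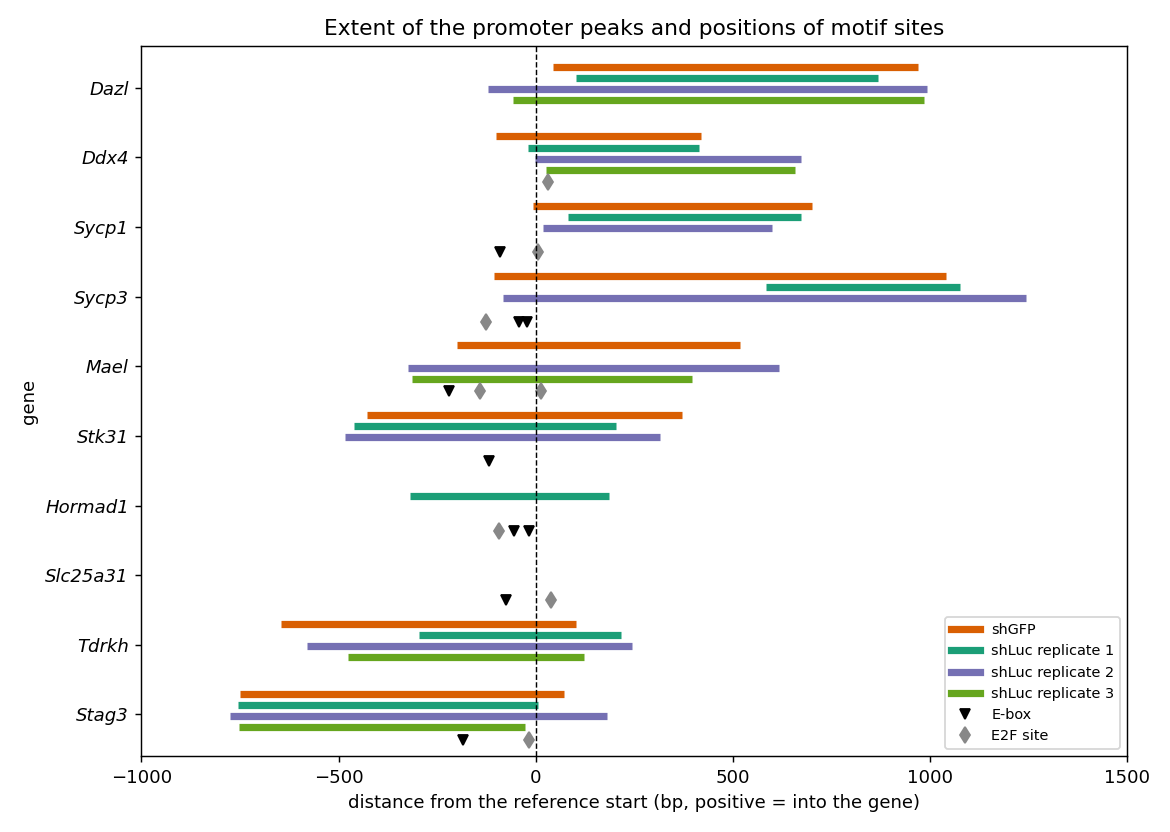
Extent of each promoter peak relative to the reference start (x axis in bp, positive into the gene, dashed line at the start) for the 10 genes (y axis), with 1 bar per library; triangles mark E-boxes and diamonds E2F sites. The peaks of Dazl lie mostly downstream, those of Stag3 upstream, and the shLuc replicate 1 peak of Sycp3 begins 584 bp into the gene.

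Peaks inside the genes but away from the promoters were counted next. A peak in the gene body over 1 kb from every start was found in 2 of the 10 genes, Sycp1 and Stk31, against 33.6% of protein-coding genes. With 10 genes this lay near the background and is no result particular to them. In Sycp1 the region chr3:102865880-102866711, in an intron, had a peak in all 4 libraries (584 bp wide in shGFP and 571, 666 and 378 bp in shLuc replicates 1, 2 and 3). Masked repeats made up on average 98.6% of these peaks, and 48.3% of the words of 50 bases in the region were repeated in the genome, so that part of it can be placed uniquely. A further intronic region of Sycp1, chr3:102848751-102849089, had a peak in shGFP and shLuc replicate 2 and no repeated word, and the intronic peak of Stk31, 474 bp wide, was listed in shGFP alone. At the reference starts of the 9 genes with a peak, no word of 50 bases was repeated, so those peaks lie in unique sequence.

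Within 50 kb, the peaks merged into 42 regions. Of these, 10 were at promoters (2 of them at Sycp1 and none at Slc25a31), 3 in gene bodies and 29 in the flanks. Of the 42 regions, 15 were present in 4 libraries, 9 in 3, 9 in 2 and 9 in 1. The regions that recurred in the flanks were mostly promoters of other genes: 15 of the 29 lay within 1 kb of another gene's start, and 9 of those 15 were in all 4 libraries. Of the 14 flank regions at no start, 1 was in all 4 libraries, in an intron on chr1:166282519-166283191, 44111 bp upstream of Mael. Tdrkh had the most crowded surroundings, with 11 regions, 11 peaks in shGFP and 2, 6 and 5 in shLuc replicates 1, 2 and 3. The other genes had 1 to 5 peaks per library, and Dazl and Slc25a31 had 1 each.

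In all, 37 peaks lay in or within 50 kb of the 10 genes in shGFP and 21, 31 and 25 in shLuc replicates 1, 2 and 3 (mean 25.7 ± 5.03, SD, n = 3). The shGFP count was above each shLuc count. With each list trimmed to its 17860 widest peaks, the length of the shortest, shGFP had 17 and the shLuc mean was 18.3 ± 2.31 (SD, n = 3), so the direction turned. Per 1000 listed peaks the order was different too, with 0.882 such peaks in shGFP and 1.18, 0.749 and 0.792 in the shLuc replicates, so shGFP then lay within the shLuc range. With the full lists, the shGFP library differed most around Tdrkh. There 3 regions, at Riiad1, at Celf3 and in an intergenic stretch, had a peak in shGFP and in no shLuc library. These peaks were 457, 354 and 297 bp wide, below the median of 655 bp over the 41943 shGFP peaks. They were therefore not among its 17860 widest peaks.

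**Figure D5:**
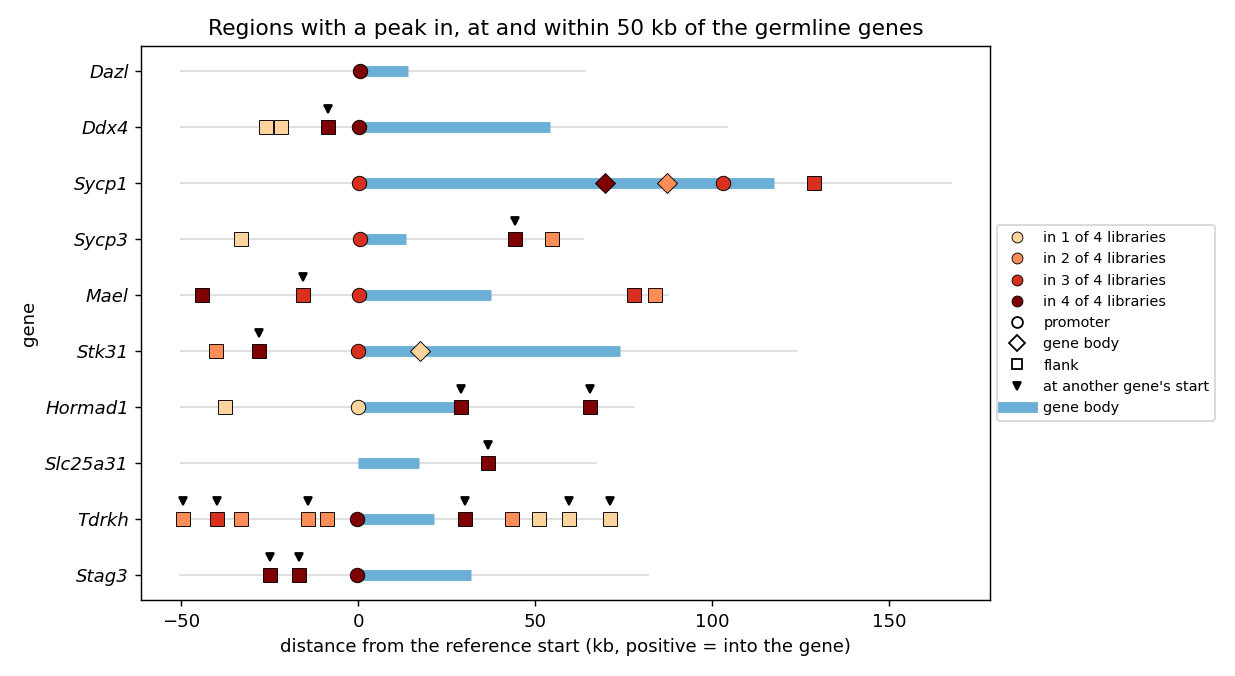
Regions with a peak at, in and within 50 kb of each of the 10 genes (y axis), by distance of the region's centre from the reference start (x axis in kb, positive into the gene); the blue bar is the gene body, the colour gives the number of libraries with a peak, and triangles mark regions at another gene's start. Dazl has 1 region, its promoter, and Tdrkh 11, and 9 of the 10 flank regions found in 4 libraries stand at another gene's start.

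Of the 58 other germline genes, 37 had a promoter peak in shGFP and 27, 35 and 31 in shLuc replicates 1, 2 and 3 (mean 31 ± 4, SD, n = 3). In at least 1 library 42 of the 58 had one (72.4%, against 64.7% of all protein-coding genes), in all 4 libraries 21 had one (36.2%, against 42.5%), and 16 had none. These shares lay near the background. Among 27 meiosis genes 22 had one in at least 1 library and 12 in all 4, among 17 genes of the piRNA pathway and germ granules 12 and 5, and among 14 germ cell RNA-binding and transcription factor genes 8 and 4. Widths here are summed over the promoter peaks of a gene in each library. Among the genes with a promoter peak in all 4 libraries, Zcwpw1, a reader of histone marks at meiotic breaks, had the largest mean sum, 1490 bp (shared with Mepce). Tex14, of the bridges between germ cells, had 1323.5 bp (shared with Rad51c and Gm22068). Boll, a relative of Dazl, had 1313.75 bp and no other start within 1 kb. Zar1, Meioc, Terb1, Tdrd7, Prdm9, Tdrd5 and Dmc1 followed, with means from 1130.5 down to 862.5 bp. None of these 10 held an E-box in the window, against 7.76% of protein-coding promoters and 10.9% of those in the high CpG class. An E2F site stood in 6 of them, against 25.1% and 42.5%. With 10 genes the lack of an E-box lay near the background.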

How the data were processed

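The authors deposited 1 ATAC-seq peak list per library, with the chromosome, start and end of each peak and no other value. The submitters' processing notes name bcl2fastq, Bowtie2, MACS2 and mm10; the peak threshold is not given in the sources used here. Per the study's methods, the best alignment of concordant pairs was kept, with a random choice among equal positions.

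Peaks were compared with GENCODE mouse release 21 (141767 transcripts) and GRCm38 in Python 3.11.15 with numpy 2.4.6, numba 0.67.0 and matplotlib 3.10.9. A promoter peak came within 1 kb of any transcript start of a gene, a gene-body peak overlapped the gene farther from its starts, and a flank peak lay within 50 kb. Widths and positions were ranked among promoter peaks at the reference starts of all protein-coding genes. CpG classes used windows of 500 bases, step 5, from 1000 before to 500 after the start; low meant no ratio over 0.48 and intermediate the rest. Repeats were soft-masked bases, and words of 50 bases were counted on both strands.

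Named were the 10 genes, genes sharing their promoter peaks, and their nearest protein-coding neighbours. Also named were the 10 of 58 other germline genes with a promoter peak in most libraries (ties by mean summed peak width). Riiad1 and Celf3 were named after their values were seen. The genes and lists were chosen with earlier results of these data known. The calling functions were tested on simulated data. Alternatives were other windows, starts, list lengths and left-out libraries.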

Additional observations from a re-analysis of the deposited data

How the results depend on the processing

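Of 79 alternative values of 10 results under 15 settings, 59 kept and 20 moved, where a count moved by more than 1.5 times, the share of protein-coding genes moved out of its Wilson interval (64.1% to 65.3%), and the CpG ratio moved by more than its SD over the 10 genes; the cause was not tested beyond what each setting does by construction. The share of protein-coding genes with a promoter peak in at least 1 library was 63.5% with starts within 500 bp, 72.4% within 5 kb, 63.2% with protein-coding transcripts only, 60.4% with the reference start only, 57.2% with the widest 50% of each list, 59.5% with each list trimmed to its 17860 widest peaks (the shortest list), and 63.0% to 64.3% with 1 shLuc library left out. The number of the 10 genes with a promoter peak in all 4 libraries fell from 5 to 2 (Dazl and Stag3) with the widest 50% and also 2 at equal length, to 3 (Dazl, Ddx4 and Sycp1) without peaks shared with another gene's start, and to 1 (Tdrkh) where the peak had to cover the reference start, and it ran from 5 to 7 with 1 shLuc library left out. The number with a promoter peak in all 4 libraries was 4 with protein-coding transcripts only and with the reference start only, where Sycp1 dropped out. Genes with a gene-body peak numbered 1 with the widest 50% and 1 at equal length. Peaks within 50 kb in shGFP numbered 22 with the widest 50%, 17 at equal length, 21 within 20 kb and 61 within 100 kb, and the shLuc mean was 15 with the widest 50%, 18.3 at equal length (above shGFP, where the full lists had 37 in shGFP against 25.7), 16 within 20 kb, 45 within 100 kb and 23 to 28 with 1 library left out. A promoter peak in at least 1 library remained for 7 genes without peaks shared with another gene's start, when Tdrkh and Stag3 were lost. It remained for 8 with the widest 50% and for 8 without shLuc replicate 1, when Hormad1 was lost in each case, and for 9 without either other replicate. Leaving out shGFP and requiring a peak over the reference start were chosen after seeing the data, and leaving out shGFP changed neither count of genes. No paired analysis was possible because shGFP is 1 library without a replicate number and no test was run. The lists hold neither depth nor peak height, so a promoter just under the caller's threshold cannot be told from a closed one, and width was the single measure by which peaks could be ranked.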

Other observations

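The genes of the repressors themselves were also looked up, as values with no explanation. Of 12 genes of PRC1.6 and its partners, 12 had a promoter peak in at least 1 library and 10 in all 4 (Mga, Max, L3mbtl2, Pcgf6, Rnf2, Rybp, Yaf2, Cbx3, Tfdp1 and Wdr5). E2f6 had a promoter peak in 2 libraries, with summed widths of 985 bp in shGFP and 690 bp in shLuc replicate 2. Ring1 had one in shLuc replicate 2 alone, with a summed width of 668 bp. Of 8 genes of SETDB1 silencing and DNA methylation, 8 had one in at least 1 library and 2 in all 4, the maintenance methyltransferase gene Dnmt1 and Atf7ip, a partner of SETDB1. Setdb1 itself, Trim28 and the methyltransferase gene Dnmt3a had one in 3 libraries and Dnmt3b in 2. Dnmt3l, a cofactor of the methyltransferases, and Uhrf1, which recruits DNMT1, had one in shGFP alone (summed widths 934 and 1352 bp). The background was 64.7% of protein-coding genes with a promoter peak in at least 1 library and 42.5% with one in all 4. All 12 genes of the PRC1.6 list were in the high CpG class, where these shares were 94.9% and 70.5%, so their counts lay near that background. Setdb1, Atf7ip, Trim28, Dnmt3a and Dnmt3b were in the high CpG class too. Uhrf1 was in the intermediate class (72.2% in at least 1 library), and Dnmt1 and Dnmt3l were in the low class (18.8%). Some of these promoter peaks, such as those of Dnmt3l and Cbx3, also came within 1 kb of another gene's start.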
